A study of Callithrix jacchus with 6 samples.

Results

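In the hippocampus of aged common marmosets (Callithrix jacchus), 1560 glutamatergic neurons with high HS3ST4 were described, out of 46582 cell barcodes in all and 27684 barcodes with at least 3000 UMIs (unique molecular identifiers, each counting 1 captured RNA molecule). They were chosen by their own counts. A member had at least 3000 UMIs, at least 5 UMIs of HS3ST4 and at least 3 of the genes SYNPO2, ADAMTSL1, VIPR2, VWC2L and KIAA1217 detected. It had no UMI of USH1C and at most 1 UMI of the GABA-synthesis genes GAD1 and GAD2 together. The control group was given oxygen for 6 h and the other group sevoflurane, an inhaled anaesthetic, for 6 h, with 3 libraries each. Every library was a collagenase-digested, cryopreserved suspension of hippocampal cells, and no further allele or agent is named in the labels. The labels call the libraries replicates without saying whether each came from a separate animal, so p-values measure only the spread between these libraries, which may be technical.

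Glutamatergic neurons release glutamate, which SLC17A7 (the vesicular transporter VGLUT1) loads into vesicles. HS3ST4 encodes a heparan sulfate 3-O-sulfotransferase and is commonly high in deep-layer neurons of the neocortex. VIPR2 is a receptor for the neuropeptides VIP and PACAP that couples to cyclic AMP, and VWC2L encodes a secreted protein with a von Willebrand factor C domain. The hippocampus proper is known for high ZBTB20, a transcription factor of its pyramidal and granule cells, and PROX1 marks dentate granule cells. TLE4, FOXP2, SYT6 and TBR1 are known for layer 6 corticothalamic neurons, and FEZF2 and BCL11B for deep-layer projection neurons.

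The members numbered 429, 264 and 142 in control replicates 1 to 3 and 127, 155 and 443 in sevoflurane replicates 1 to 3. Their summed depth was 1450878 to 4510358 UMIs per library, and their median depth 8914 to 11520 UMIs per cell. Of the members, 89 (5.71%) were called doublets and were kept. Pairs of libraries shared 13 to 27 barcode sequences (263 over 15 pairs), and none of these was a member in both libraries of its pair.

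Sevoflurane replicate 3 stood apart from the other libraries before any comparison. Its members had 54.5 CPM of ADAMTSL1 (the gene's UMIs divided by all UMIs, both summed over the members of a library, and scaled to 1e6), against 380 to 499 in the other 5 libraries. ROBO1, an axon guidance receptor, was at 251 CPM there against 1136 to 1778 elsewhere. RORB, a transcription factor best known from layer 4, was at 324 CPM there against 12.4 to 36.1 elsewhere. The results below that rest on this library are given with and without it.

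HS3ST4 itself was at 3941, 4014 and 3336 CPM in members of control replicates 1 to 3 and at 2616, 2773 and 3125 CPM in sevoflurane replicates 1 to 3. A member held 5 to 232 HS3ST4 UMIs, with a median of 31.0. GABAergic neurons (at least 3 UMIs of GAD1 plus GAD2 and none of SLC17A7), which should lack the gene, had 47.7 to 137 CPM. After each cell was thinned to 3000 UMIs, at least 96.8% of members in every library had an HS3ST4 UMI, and 10.3% to 24.7% of GABAergic neurons did. VIPR2 was at 66.8 to 184 CPM in members and at 2.30 to 8.65 CPM in GABAergic neurons. VWC2L was at 300 to 439 CPM, SYNPO2, which encodes an actin-binding protein, at 127 to 251 CPM, and KIAA1217 at 505 to 1124 CPM. GABAergic neurons had KIAA1217 at 451 to 759 CPM, which overlaps the members' range, and SYNPO2 at 6.74 to 16.5 CPM. These 6 genes chose the members, so their levels are a description without a test. Members with 5 UMIs of HS3ST4 (55 cells), just inside the threshold, had TLE4 at 67.3 CPM. Barcodes with 4 UMIs that otherwise met the rule (71 cells), just outside it, had TLE4 at 30.2 CPM. Members with 3, 4 and 5 of the partner genes had TLE4 at 211, 302 and 335 CPM and ZBTB20 at 45.7, 31.6 and 28.1 CPM. Barcodes with 2 partners had TLE4 at 94.4 CPM and ZBTB20 at 102 CPM. The 178 barcodes with USH1C that otherwise met the rule had TLE4 at 202 CPM, ZBTB20 at 172 CPM and SHISA6 at 766 CPM. The limit on USH1C thus left out barcodes with more ZBTB20, so the low ZBTB20 of the members depends in part on the rule.

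The members carried the transmitter gene of cortical glutamatergic neurons. SLC17A7 was at 211, 167 and 176 CPM in the control members and at 151, 174 and 199 CPM in the sevoflurane members, and 80.4% of members had at least 1 UMI of it. SLC17A7 was also part of how other sets were picked, so it is not compared with them. GAD1 was at 6.65 to 10.3 CPM in members, a level that the rule itself limited. SLC32A1, the vesicular GABA transporter, and DLX1, a transcription factor of interneurons, had 0 of 16881612 member UMIs, which allows up to 0.178 CPM. These intervals and limits cover counting error only. Both genes were also low in GABAergic neurons, at 0 to 1.22 CPM for SLC32A1 and 0.575 to 4.87 CPM for DLX1. The other glutamatergic neurons had 0 UMIs of both as well, so the zeros, that of SLC32A1 above all, say little about identity. Of the factors of cortical glutamatergic neurons, TBR1 was at 39.2 to 83.1 CPM in members and 3.24 to 13.3 CPM in GABAergic neurons. NEUROD2 and NEUROD6, also of such neurons, were at most 0.933 and 6.89 CPM, and SLC17A6, the VGLUT2 gene, was at 1.26 to 12.6 CPM.

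Several genes known from deep cortical layers were higher in members than in other glutamatergic neurons, and ZBTB20 was low in members of all 6 libraries. For comparison, other glutamatergic neurons were 1706 barcodes with at least 3 UMIs of SLC17A7, at most 1 of HS3ST4, and the same limits on depth, GAD genes and USH1C. The 2 sets were split on HS3ST4, itself commonly high in deep layers. Genes that go with it may differ through that choice, so these levels are a description without a test. TLE4, a transcriptional corepressor, was at 297, 231 and 311 CPM in the control members and at 221, 284 and 242 CPM in the sevoflurane members. It was at 29.4 to 61.3 CPM in the other glutamatergic neurons, so the 2 ranges did not overlap. FOXP2 was at 71.8 to 175 CPM in members against 4.09 to 24.6 CPM, again without overlap. FEZF2 was at 58.5 to 92.4 CPM against 11.3 to 59.3 CPM, and these ranges just overlapped. SYT6, a synaptotagmin, was at 7.37 to 24.2 CPM against 0.971 to 3.99 CPM, but GABAergic neurons reached 20.3 CPM. The 8 layer 6 corticothalamic genes listed summed to 527 to 685 CPM in members and 101 to 281 CPM in the other glutamatergic neurons. Of the other corticothalamic markers, NTSR1 (3.33 to 14.7 CPM) was about as low in members as in the other set (3.53 to 14.9 CPM), and RPRM had no UMI in members, in the other glutamatergic neurons or in GABAergic neurons.

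ZBTB20 was at 30.9, 53.5 and 62.0 CPM in the control members and at 49.0, 20 and 29.5 CPM in the sevoflurane members. In the other glutamatergic neurons it was at 242, 284 and 475 CPM in the control libraries and at 436 and 690 CPM in sevoflurane replicates 1 and 2. In sevoflurane replicate 3 it was at 24.3 CPM there too, so that library's glutamatergic neurons outside the members were as low in ZBTB20 as its members. Barcodes with 5 or more HS3ST4 UMIs but under 3 partner genes (2437 barcodes) had ZBTB20 at 100 to 369 CPM in 5 libraries and at 36.6 CPM in sevoflurane replicate 3. LHX2, also a transcription factor, was at 5.03 to 12.4 CPM in members against 18.7 to 29.7 CPM.

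Markers of the hippocampal fields gave a mixed picture. PROX1 was at 1.87 to 4.88 CPM in members, below the 6.47 to 114 CPM of the other glutamatergic neurons and the 21.0 to 35.3 CPM of GABAergic neurons. NEUROD1, a granule cell factor, had UMIs in members of 1 library only, at 0.628 CPM. SGCZ, on the same dentate granule cell list, was high instead, at 958 to 3054 CPM against 44.7 to 564 CPM in the other glutamatergic neurons, and GABAergic neurons had 2838 to 3360 CPM. Of the dentate mossy cell genes listed, DLC1 was high in members, while ARHGAP24 (14.2 to 22.1 CPM), CALB2 (4.40 to 13.4 CPM) and DRD2 (0.527 to 7.77 CPM) were not. Of the CA1 genes, ACVR1C was low (14.2 to 26.4 CPM), FIBCD1 was at 27.1 to 34.8 CPM in the controls and 4.21 to 16.3 CPM after sevoflurane, and GRM3, a metabotropic glutamate receptor, was at 131 to 178 CPM against 51.2 to 119 CPM in the other set. Of the subiculum genes, FN1 was at 1.87 to 7.98 CPM in members, NTS, the neurotensin gene, at 0 to 6.28 CPM, and SEMA3E, a semaphorin, at 109 to 183 CPM against 23.9 to 133 CPM. ROBO1 was at 251 to 1778 CPM against 185 to 1351 CPM, and NTNG1, a netrin-G, at 81.1 to 318 CPM against 39.2 to 258 CPM. Of the CA2 and CA3 genes, CPNE4 was at 209 to 394 CPM in members against 126 to 335 CPM, SHISA6 at 110 to 560 CPM against 59.9 to 811 CPM, and GRIK4 at 126 to 361 CPM against 213 to 331 CPM. That list summed to 912 to 1485 CPM in members and 1242 to 1841 CPM in the other set. The members thus carried TLE4, FOXP2 and little ZBTB20, together with some genes listed for each hippocampal field and the subiculum, and these counts do not place them in 1 region. Whether tissue next to the hippocampus was taken along with it was not tested.

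**Figure D1:**
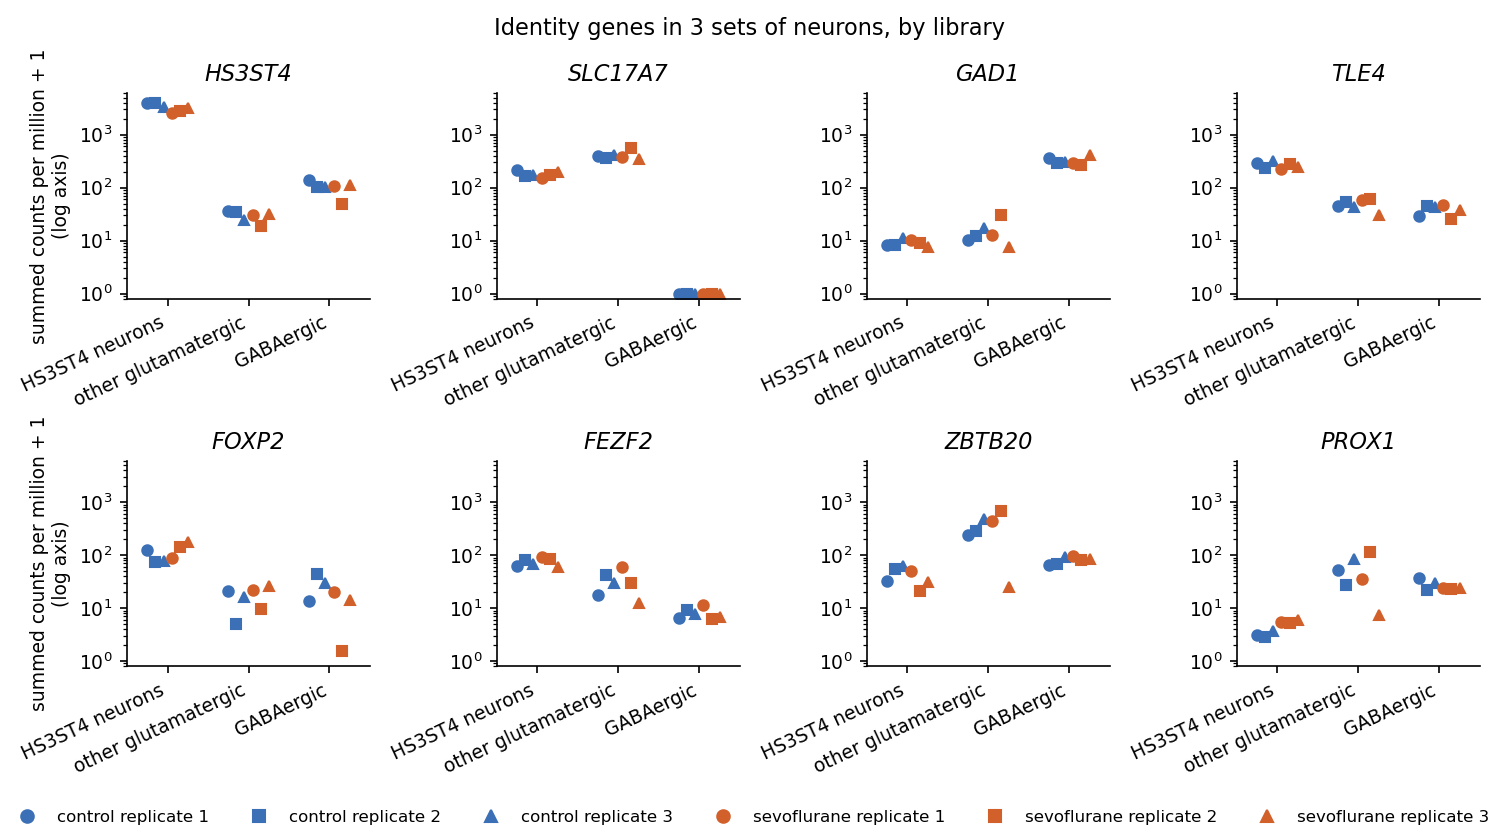
Each panel plots 1 gene as summed CPM plus 1 on a log axis, with 1 point per library, for the HS3ST4 neurons, the other glutamatergic neurons and the GABAergic neurons. TLE4 and FOXP2 sit higher in the HS3ST4 neurons of every library, ZBTB20 sits lower in 5 libraries, and in sevoflurane replicate 3 ZBTB20 is low in both glutamatergic sets.

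Markers of other deep types were mixed. The layer 6b genes CCN2 (0 to 1.38 CPM), NXPH4 (0 to 2.80 CPM) and CPLX3 (1.19 to 3.11 CPM) were near 0 in all libraries. NR4A2, a nuclear receptor known from layer 6b and claustrum, was at 22.4 to 33.8 CPM in 5 libraries and at 5.99 CPM in sevoflurane replicate 3, against 0.725 to 6.39 CPM in the other glutamatergic neurons. THEMIS, known from deep intratelencephalic neurons, was at 0.527 to 3.77 CPM in 5 libraries and at 33.7 CPM in sevoflurane replicate 3, whose other glutamatergic neurons had 52.1 CPM. Other genes listed for deep types were well above 0. TSHZ2, listed for near-projecting neurons, was at 252 to 750 CPM in members against 68.8 to 437 CPM in the other glutamatergic neurons. BCL11B, listed for layer 5 extratelencephalic neurons, was at 102 to 295 CPM against 31.4 to 245 CPM. Of the deep intratelencephalic genes, CDH13, a cadherin, was at 162 to 884 CPM against 52.5 to 481 CPM, ETV1 at 42.6 to 223 CPM against 10.7 to 87.9 CPM, and SULF1 at 27.7 to 60.7 CPM against 2.45 to 17.3 CPM. SULF1 alone of these 5 had ranges that did not overlap. The claustrum gene SYNPR was lower in members, at 34.8 to 126 CPM against 167 to 799 CPM. GBX2 and SHOX2, factors of thalamic neurons, and LHX5 and LHX1, factors of Cajal-Retzius cells, had no UMI in members. These 4 had at most 7 UMIs in the other glutamatergic or the GABAergic neurons, so their zeros say little. Of the same thalamic list, TCF7L2 was at 29.5 to 66.1 CPM in members, and LEF1 and PRKCD at most at 3.56 and 3.55 CPM. Of the Cajal-Retzius list, RELN was at 9.43 to 86.8 CPM, and TP73 and EBF3 at most at 1.26 and 0.689 CPM. Of the amygdala and hypothalamus factors, MEIS2 was at 316, 170 and 243 CPM in control members and at 91.1, 31.6 and 258 CPM in sevoflurane members. SIM1 and OTP were at most at 0.222 and 0.527 CPM. The 3 summed to 170 to 316 CPM in control members and 137 to 167 CPM in the other glutamatergic neurons of the controls. After sevoflurane they summed to 32.1 to 259 CPM and 23.5 to 256 CPM.

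The genes that led the members over the other glutamatergic neurons, by the mean over libraries of the log2 ratio of CPM plus 1, were DLC1, ZNF385D, SGCZ, DPP10 and GRIK3. DLC1 had a mean log2 ratio of 3.47 ± 0.627 (SD, n = 6), from 525 to 1284 CPM in members against 25.8 to 139 CPM. GRIK3, a kainate receptor subunit, had a mean log2 ratio of 3.12 ± 0.800 (SD, n = 6), from 170 to 322 CPM against 9.53 to 62.3 CPM. RXFP1, a relaxin receptor, was at 197 to 401 CPM in members of 5 libraries and at 51.2 CPM in sevoflurane replicate 3, against 26.1 to 40.1 CPM. FGFR1, BRINP3, TOX, ASAP2, SDK2, ASTN2, TLE4, GRM8 and NETO2 completed the 15 leading genes. The genes lowest in members were LAMA3, CHST9, ZBTB20, CHN2 and ACVR1C. LAMA3, a laminin subunit, was at 13.8 to 24.9 CPM in members against 78.9 to 692 CPM. ACVR1C, an activin receptor, was at 14.2 to 26.4 CPM against 47.2 to 263 CPM. The cells were picked on correlated genes, so these ratios carry no test.

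The members were not a single type. Leiden clustering of the members gave 8 sub-clusters, given here by number and leading genes, whose defining genes are a description. Sub-cluster 0 (333 cells) was led by COL6A2, EPHA3, GLRA2 and HTR7 and had TLE4 at 421 CPM pooled over libraries. Sub-cluster 1 (195 cells) was led by ADAMTS16 and HEG1, with SYT6 at 45.7 CPM, and sub-cluster 2 (182 cells) by RCSD1 and ITPR2, with SYT6 at 45.0 CPM and FOXP2 at 275 CPM. Sub-cluster 5 (263 cells) was led by ALK, SULF1 and CHRM2, with TLE4 at 461 CPM. Sub-cluster 7 (50 cells) was led by ANKFN1, CHRNA2 and CORIN, with TSHZ2 at 1330 CPM and NXPH2 at 208 CPM.

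The remaining sub-clusters had less TLE4, but not less of every corticothalamic gene. FOXP2 was at 221 CPM in sub-cluster 3 and 103 CPM in sub-cluster 4, against 93.1 to 275 CPM in the first 5. FEZF2 was highest of all 8 in sub-cluster 6, at 103 CPM, and CRYM was at 177 CPM there. Sub-cluster 3 (103 cells) was led by FNDC1, ADAMTS9 and IGF2BP2, and had CUX2 at 327 CPM and TLE4 at 96.1 CPM. Sub-cluster 4 (217 cells) was led by RORB (599 CPM), IL1RAPL2 and CHRD, with TLE4 at 62.6 CPM. Sub-cluster 6 (217 cells) was led by NDST4, TACR3 and TRPC4, and had ROBO1 at 2818 CPM, ADAMTSL1 at 749 CPM, TLE4 at 53.0 CPM and FOXP2 at 15.1 CPM. HS3ST4 was at 6046, 4976, 3857, 4652 and 3148 CPM in sub-clusters 0, 1, 2, 5 and 7, and at 935, 1185 and 1254 CPM in sub-clusters 3, 4 and 6. KIAA1217 followed the same split, at 730 to 1705 CPM in the first 5 and at 97.9 to 219 CPM in the other 3. ZBTB20 was at 18.0 to 71.5 CPM in all 8, highest in sub-cluster 6.

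**Figure D2:**
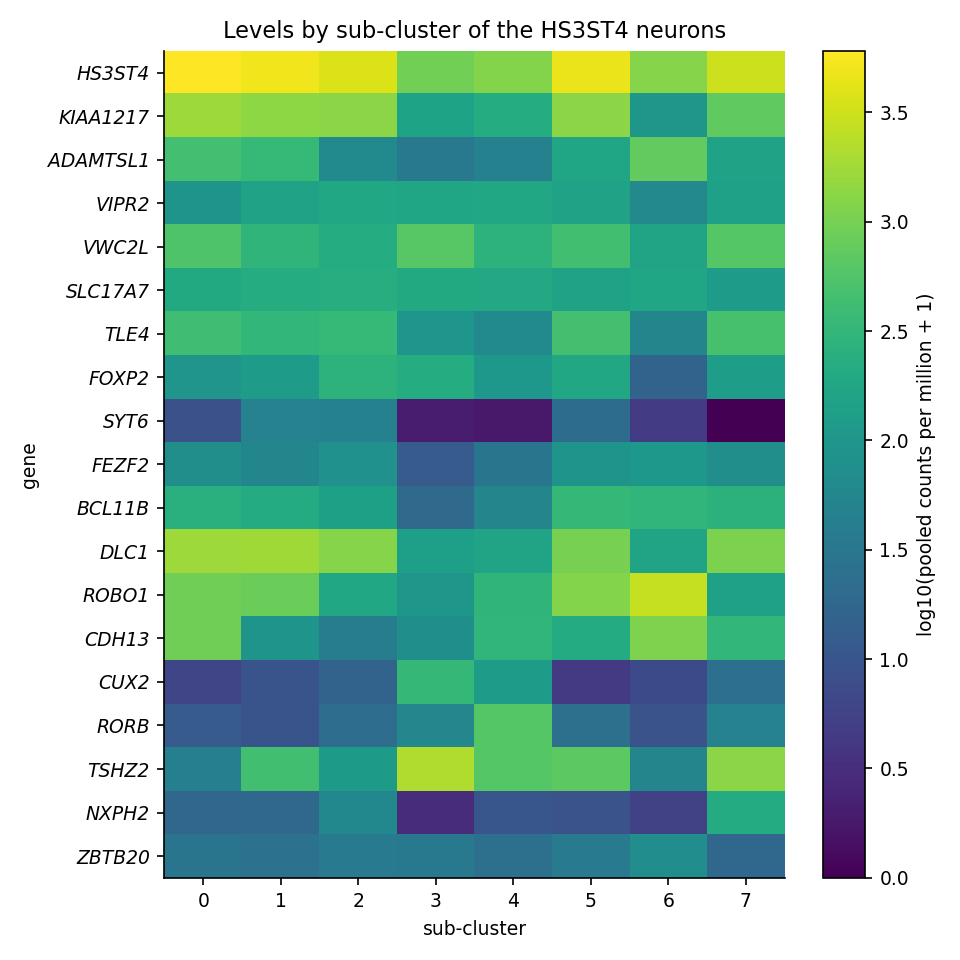
The colour gives log10 of pooled CPM plus 1 for the genes named (rows) in the 8 sub-clusters (columns). HS3ST4, KIAA1217, TLE4 and DLC1 are brightest in sub-clusters 0, 1, 2, 5 and 7, RORB in sub-cluster 4, and CUX2 in sub-cluster 3. TSHZ2 is brightest in sub-cluster 3, with high levels in sub-clusters 4, 5 and 7 too. ROBO1 is brightest in sub-cluster 6, with high levels in sub-clusters 0, 1 and 5 too.

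The libraries held these sub-clusters in unequal shares. Sub-cluster 1 made up 27.5%, 12.5% and 28.9% of the control members and 0%, 1.94% and 0% of the sevoflurane members. The zeros were 0 of 127 and 0 of 443 cells, which allow shares of up to 2.36% and 0.677%. Sub-cluster 5 made up 12.4%, 20.1% and 22.5% of the control members, 33.1% and 45.2% in sevoflurane replicates 1 and 2, and 2.93% in sevoflurane replicate 3. Sub-clusters 2, 4 and 7 made up 30.9%, 36.1% and 9.48% of sevoflurane replicate 3, and at most 8.39% of any other library. Sub-cluster 6 made up 7.69% to 37.8% of the other libraries and 0.451% of sevoflurane replicate 3. Over summed cells, fewer cells of a kind and less RNA per cell cannot be told apart. Genes that define the sub-clusters may themselves differ between groups, so their sizes are a description and were not compared by a test. A shift in which neurons were captured and a change within neurons cannot be told apart from the summed members alone.

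**Figure D3:**
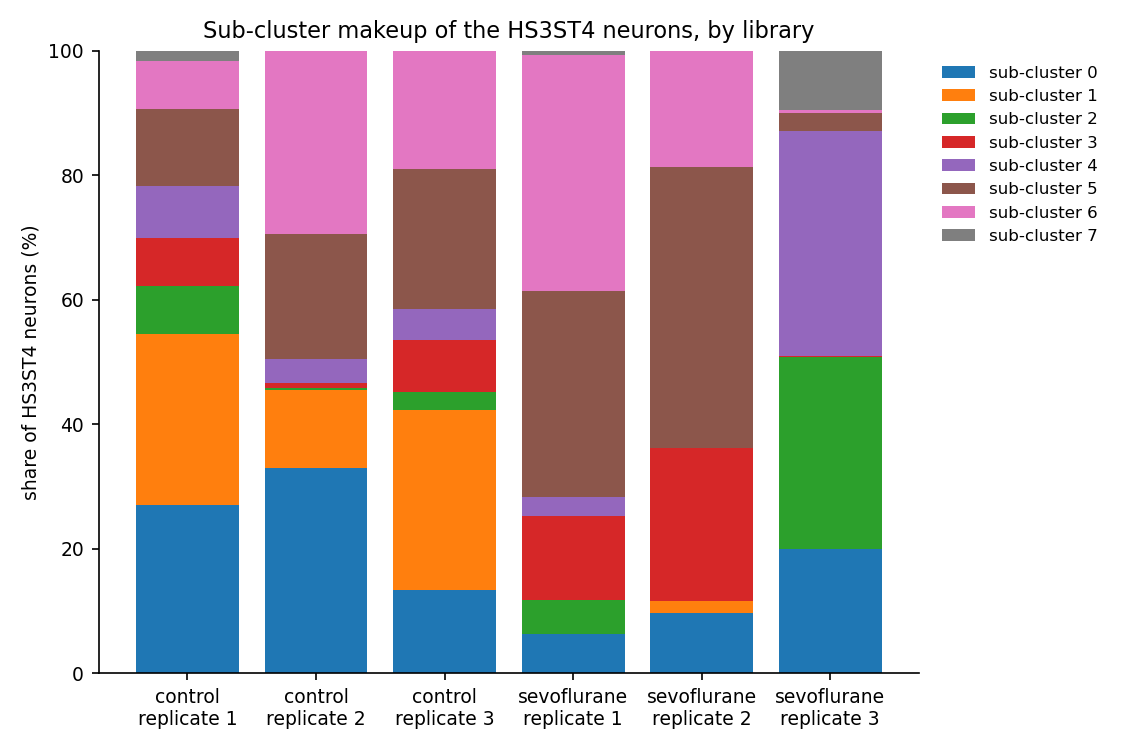
Stacked bars give each library's members as percentages in the 8 sub-clusters. Sub-cluster 1 (orange) is seen almost entirely in the control libraries, and sevoflurane replicate 3 is mostly sub-clusters 0, 2 and 4.

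The share of members did not differ between groups beyond the spread of libraries. Members made up 8.86%, 6.43% and 3.20% of the barcodes with at least 3000 UMIs in control replicates 1 to 3 and 2.77%, 3.27% and 8.94% in sevoflurane replicates 1 to 3. The exact (Clopper-Pearson) 95% intervals were narrow, from 8.07% to 9.70% in control replicate 1 and from 8.16% to 9.77% in sevoflurane replicate 3. The highest and the lowest values of both groups overlapped. The means were 6.16% ± 2.84 and 4.99% ± 3.43 (SD, n = 3 each), a difference of -1.17 percentage points with a two-sided exact permutation p of 0.800, where 20 arrangements allow no p below 0.1. Without control replicate 1 the difference was 0.181 points, and without sevoflurane replicate 3 it was -3.14 points with an exact permutation p of 0.400. After every barcode was thinned to 3000 UMIs before the rule, the difference was -1.47 points with an exact permutation p of 0.200.

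Between sevoflurane and control members, 11 of 11455 genes tested (0.0960%) passed edgeR's quasi-likelihood test at a Benjamini-Hochberg adjusted p of 0.05, 3 higher and 8 lower after sevoflurane. POLQ, AGBL3 and an unnamed gene rose, and NOTCH2, MAMDC2, KIRREL1, ARHGAP8, GLRA3, ILDR2, STUM and an unnamed gene fell. None of the genes used by the rule was among them, but 2 of these were lower in every sevoflurane library than in every control library. HS3ST4 was at 3336 to 4014 CPM in control members and 2616 to 3125 CPM in sevoflurane members. KIAA1217 was at 1105, 1124 and 993 CPM against 505, 682 and 813 CPM. Whether the rule therefore picked different cells in the 2 groups was not tested. In all 11 the groups did not overlap, which held for 19.3% of all genes tested. The median log2 fold change over all genes was 0.01, and 1367 genes (11.9%) had an unadjusted p under 0.05. Most calls did not hold when a library other than sevoflurane replicate 3 was left out. None of the 11 was called without control replicate 1, control replicate 3, sevoflurane replicate 1 or sevoflurane replicate 2. All 11 kept their direction in every fit that left out 1 library, but those fits share the libraries on which the genes were picked. Without control replicate 2, 3 genes were called, NOTCH2 and POLQ among them, and without sevoflurane replicate 3 there were 171 calls of 10978 genes (1.56%), the 11 among them.

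POLQ encodes DNA polymerase theta, which joins broken DNA ends. It was at 80.0, 100 and 67.5 CPM in control members and at 258, 289 and 237 CPM in sevoflurane members. Every sevoflurane library was above every control library, by a log2 fold change of 1.56 ± 0.17 (SE, adjusted p = 0.0242 with edgeR). AGBL3, a cytosolic carboxypeptidase that trims glutamate from proteins such as tubulin, was at 8.54, 8.39 and 15.9 CPM in control members and at 49.0, 48.4 and 46.3 CPM in sevoflurane members. The sevoflurane libraries lay close together and well above the controls, by a log2 fold change of 2.13 ± 0.25 (SE, adjusted p = 0.0242 with edgeR). The unnamed gene ENSCJAG00000059940 was at 12.6, 18.7 and 15.2 CPM against 64.7, 63.7 and 46.6 CPM, a log2 fold change of 1.82 ± 0.22 (SE, adjusted p = 0.0288 with edgeR).

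Of the genes that fell, NOTCH2, a receptor of the Notch pathway, was at 118, 99.8 and 119 CPM in control members and at 32.0, 39.0 and 41.2 CPM in sevoflurane members. Both groups were tight, and the log2 fold change was -1.66 ± 0.15 (SE, adjusted p = 0.0202 with edgeR). MAMDC2, a secreted proteoglycan, was at 142, 207 and 150 CPM against 30.8, 29.0 and 52.8 CPM, with sevoflurane replicate 3 the highest of its group. Its log2 fold change was -2.20 ± 0.26 (SE, adjusted p = 0.0242 with edgeR). KIRREL1, a cell adhesion protein of the immunoglobulin superfamily, was at 32.8, 46.6 and 36.5 CPM against 10.7, 8.95 and 9.98 CPM. GLRA3, a glycine receptor subunit, was at 53.2, 52.5 and 48.2 CPM against 20.1, 15.3 and 19.5 CPM. Their log2 fold changes were -2.06 ± 0.22 and -1.57 ± 0.17 (SE, adjusted p = 0.0242 for both with edgeR). ARHGAP8 was at 26.3, 26.4 and 25.5 CPM against 7.54, 3.16 and 5.76 CPM. ILDR2 was at 57.2 to 64.1 CPM against 23.9 to 28.8 CPM, STUM at 151 to 161 CPM against 70.7 to 87.4 CPM, and the unnamed gene ENSCJAG00000049069 at 25.5 to 31.7 CPM against 6.65 to 10.5 CPM.

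**Figure D4:**
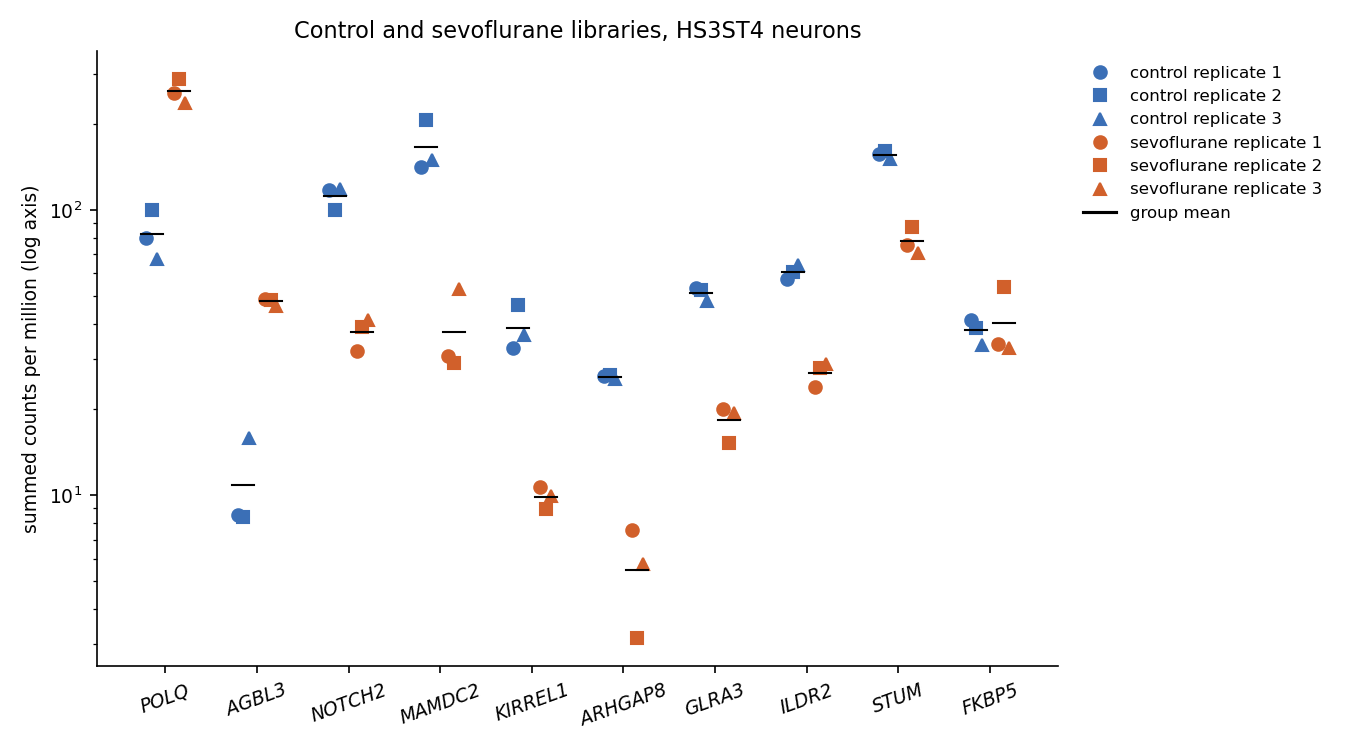
Points give summed CPM (log axis) of 10 genes in the HS3ST4 neurons of each library, and black lines give the group means. POLQ and AGBL3 are higher and 7 genes lower in all 3 sevoflurane libraries, while FKBP5 overlaps between the groups.

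Several of these genes differed in level between sub-clusters, and the groups differed in sub-cluster makeup. Within control replicate 1, NOTCH2 was at 271 and 124 CPM in sub-clusters 0 and 1, which were larger in the controls than in sevoflurane replicates 1 and 2, and at 10.4 CPM in sub-cluster 4. MAMDC2 was at 338 CPM in sub-cluster 0 and at 12.5 CPM in sub-cluster 4 of that library. AGBL3 was at 3.76 to 17.0 CPM over 7 sub-clusters of control replicate 1 and at 25.7 to 80.9 CPM over 4 sub-clusters of sevoflurane replicate 3. The contrast was therefore repeated within sub-clusters 5 and 6, each with at least 20 cells in 5 libraries and without sevoflurane replicate 3, a choice made after the data were seen.

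Within sub-cluster 5, 21 of 6678 genes (0.314%) were called, and within sub-cluster 6, 8 of 7414 (0.108%). The 8 included KIAA1217 (log2 -2.22), a gene of the member rule, and no result is drawn from that call because the gene helped to choose the cells. Of the 11 genes above, 10 were tested in sub-cluster 5 and 9 in sub-cluster 6, and all of these had the same direction as before. The sub-clusters are part of the same cells on which the 11 were picked, so this is a description and no independent check. POLQ was called in both. In sub-cluster 5 it was at 65.9, 93.4 and 54.4 CPM in the controls and at 172 and 234 CPM after sevoflurane (log2 1.41 ± 0.25 SE, adjusted p = 0.0176 with edgeR). In sub-cluster 6 it was at 117, 119 and 96.6 CPM against 342 and 463 CPM (log2 1.8 ± 0.19 SE, adjusted p = 0.00248 with edgeR). MAMDC2 and KIRREL1 were also called in sub-cluster 5, at log2 fold changes of -2.17 ± 0.36 (SE, adjusted p = 0.0109 with edgeR) and -2.05 ± 0.37 (SE, adjusted p = 0.0195 with edgeR).

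The other genes did not pass within a sub-cluster. AGBL3 had log2 fold changes of 1.77 ± 0.41 and 1.76 ± 0.42 (SE) in sub-clusters 5 and 6, with edgeR adjusted p of 0.0783 and 0.0956. NOTCH2 had -1.04 ± 0.40 and -1.57 ± 0.29 (SE), with edgeR adjusted p of 0.384 and 0.0509. The unnamed gene ENSCJAG00000059940 had 0.48 ± 0.33 (SE) in sub-cluster 5, well under its value over all members. In sub-cluster 0, where only control replicates 1 and 2 and sevoflurane replicate 3 had at least 20 cells, POLQ was at 56.4 and 60.9 against 284 CPM and KIRREL1 at 35.7 and 63.0 against 1.98 CPM, with no test.

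**Figure D5:**
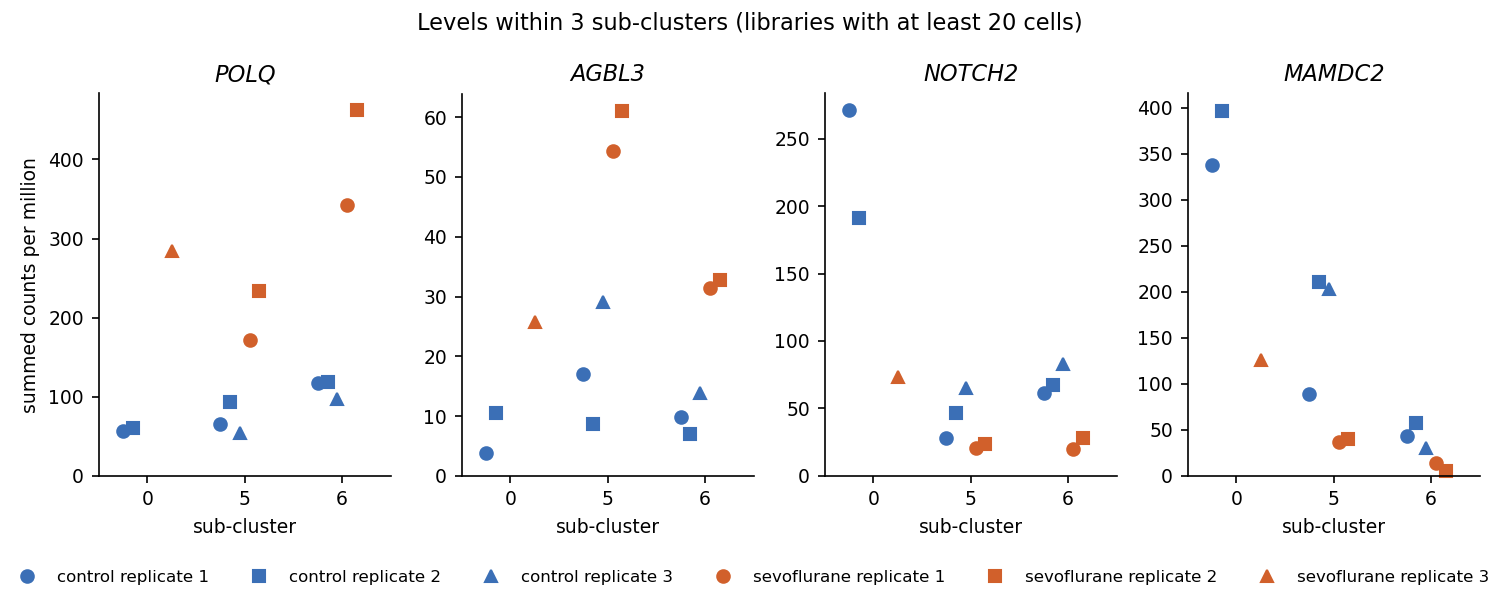
Points give summed CPM of POLQ, AGBL3, NOTCH2 and MAMDC2 within sub-clusters 0, 5 and 6, for libraries with at least 20 cells of the sub-cluster. POLQ and AGBL3 are higher and NOTCH2 and MAMDC2 lower in the sevoflurane libraries of each, for example POLQ at 342 and 463 against 96.6 to 119 in sub-cluster 6.

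RELN, an extracellular glycoprotein, narrowly missed the threshold over all members, at 59.6, 49.1 and 86.8 CPM in the controls against 9.43, 21.6 and 12 CPM (log2 -2.27 ± 0.31 SE, adjusted p = 0.0521 with edgeR). It was among the leading genes of sub-cluster 5, where it was called, at 168, 116 and 287 CPM against 15.9 and 43.8 CPM (log2 -2.54 ± 0.40 SE, adjusted p = 0.0109 with edgeR). That sub-cluster was made from the same expression values, with RELN among its leading genes, so no result is drawn from that call. Without sevoflurane replicate 3 RELN was called over all members too (log2 -2.09 ± 0.34 SE, adjusted p = 0.0178 with edgeR). RELN was also lower after sevoflurane in GABAergic neurons, where it was far higher, at 816 to 1291 CPM against 362 to 689 CPM. In the other glutamatergic neurons it was at 28.6 to 57.5 CPM against 3.88 to 19.8 CPM, and the interaction was -0.29 ± 0.54 (log2, SE). ASB1 and SYN3, higher after sevoflurane, did not pass either. ASB1, of the SOCS box family, was at 52.7, 45.4 and 55.1 CPM against 104, 104 and 96.0 CPM (adjusted p = 0.0553 with edgeR). SYN3, a synapsin, was at 126, 120 and 108 CPM against 201, 238 and 218 CPM (adjusted p = 0.0647 with edgeR), but within sub-cluster 6 its log2 value was -1.02.

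Astrocyte marker RNA in the members differed between the groups, and most of it was SLC1A2. The summed level of 5 astrocyte markers in the members was 299 to 434 CPM in the controls and 162 to 276 CPM after sevoflurane. SLC1A2, an astrocyte glutamate transporter, was at 272, 345 and 378 CPM against 161, 150 and 240 CPM. Over the 8 sub-clusters SLC1A2 ranged from 96.2 to 498 CPM, so it varied among the members themselves. Of 4 astrocyte markers tested, none was called by edgeR, and 2 (SLC1A2 and GFAP) had an unadjusted p under 0.05. Without sevoflurane replicate 3 edgeR called SLC1A2 (log2 -1.17, adjusted p = 0.0103), as DESeq2 did with all libraries. ALDH1L1 had a log2 value of 0.61 ± 0.66 (SE), in the other direction. The same 5 markers summed to 310 to 566 CPM in control GABAergic neurons and 203 to 338 CPM in sevoflurane ones, with overlap. In the other glutamatergic neurons they summed to 229 to 465 CPM and 205 to 304 CPM. In HS3ST4-high barcodes with under 3 partner genes they summed to 192 to 314 CPM and 154 to 301 CPM. Both of these sets overlapped between groups too. In the members, oligodendrocyte markers (4 in the file) summed to 203 to 253 CPM and 140 to 326 CPM, and microglial markers (5) to 12.4 to 24.0 CPM and 10.5 to 27.3 CPM. Their part in the group contrast was not tested.

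FKBP5, the glucocorticoid-induced immunophilin named in the study's title, was at 41.3, 38.6 and 33.8 CPM in control members and at 33.9, 53.7 and 32.8 CPM in sevoflurane members. The groups overlapped, with sevoflurane replicate 2 the highest, and the log2 fold change was -0.03 ± 0.21 (SE, adjusted p = 0.982 with edgeR). Its direction turned with the settings, from -0.28 to 0.12 over the fits that left out 1 library. Within sub-cluster 5 its value was 0.93 ± 0.34 (SE, adjusted p = 0.338 with edgeR). Of 13 glucocorticoid-induced genes tested, none was called and 9 had a positive log2 value, with a median of 0.38. Of all 11455 genes 5948 were positive, with a median of 0.01. In the list, 2 genes higher and 1 lower had an unadjusted p under 0.05 with edgeR (23.1%, against 11.9% of all genes). SGK1, a kinase, was at 129, 189 and 237 CPM against 139, 99.0 and 65.8 CPM. IRS2, an insulin receptor substrate, was at 10.9, 14.6 and 11.7 CPM against 29.5, 19.5 and 18.8 CPM, without overlap. KLF9 was at 6.41, 4.66 and 11.7 CPM against 8.17, 16.3 and 19.3 CPM, and ZBTB16 at 197, 222 and 309 CPM against 351, 280 and 422 CPM, both with overlap.

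Gene lists for the members' marker pathways and for anaesthetic targets held no called gene, against 0.0960% of all genes. Of 25 genes of VIP and PACAP receptor signalling tested, 5 had an unadjusted p under 0.05 (11.9% of all genes did), 1 higher and 4 lower, and the median log2 value was -0.23. ADCY2, an adenylyl cyclase, was at 531, 550 and 579 CPM against 348, 334 and 439 CPM, and PDE10A, a cyclic nucleotide phosphodiesterase, at 811, 783 and 607 CPM against 473, 409 and 240 CPM. ADCY8 went the other way, at 125, 67.2 and 111 CPM against 226, 222 and 112 CPM, with overlap through sevoflurane replicate 3. DESeq2 called ADCY2 and PDE10A and limma none. Without sevoflurane replicate 3 edgeR called 4, ADCY2, PDE10A, ADCY8 and, named after its values were seen, GNAL.

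Of 25 genes of heparan sulfate synthesis and sulfation, 6 had an unadjusted p under 0.05, 1 higher and 5 lower, with a median log2 value of -0.19. HS3ST5, which like HS3ST4 is a 3-O-sulfotransferase, was at 93.0, 111 and 64.1 CPM against 20.1, 16.3 and 32.6 CPM (log2 -2.01 ± 0.29 SE, adjusted p = 0.0521 with edgeR). SULF2, which removes 6-O-sulfates at the cell surface, was at 117, 155 and 119 CPM against 78.6, 66.9 and 58.1 CPM, and EXT1, a chain polymerase, at 542, 732 and 722 CPM against 446, 434 and 421 CPM. GLCE, the glucuronic acid epimerase, was at 64.8, 57.5 and 74.4 CPM against 33.9, 37.4 and 45.2 CPM. None of these 4 overlapped between groups, but they were picked as the 4 of smallest p. Of the 25 genes, 1 was higher and 5 lower without overlap. Of all 11455 genes, 1553 were higher and 659 lower without overlap (19.3% together). DESeq2 called HS3ST5, SULF2, EXT1 and GLCE, and limma HS3ST5. Without sevoflurane replicate 3 edgeR called HS3ST5, SULF2 and GLCE. Of 20 genes of BMP and activin signalling, 1 had an unadjusted p under 0.05, ACVR2A at 150, 169 and 156 CPM against 104, 131 and 95.3 CPM. DESeq2 and limma called 0 of the 20. Without sevoflurane replicate 3 edgeR called FSTL1, a follistatin-like protein also named after its values were seen, at 43.2, 45.4 and 37.2 CPM against 18.2 and 20.5 CPM (log2 -1.20, adjusted p = 0.0202 with edgeR), and 46.6 CPM in the library left out.

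Of 12 GABA-A receptor subunits, 1 had an unadjusted p under 0.05. It was GABRA5, an extrasynaptic subunit typical of the hippocampus, at 41.3, 34.5 and 38.6 CPM against 27.0, 21.6 and 22.6 CPM (log2 -0.78 ± 0.17 SE, adjusted p = 0.121 with edgeR). Of 13 potassium, HCN and leak channel genes, 3 had an unadjusted p under 0.05, with a median log2 value of -0.13. KCNK1, a background potassium channel, was at 124, 205 and 181 CPM against 112, 101 and 99.3 CPM, and KCNA1, a voltage-gated one, at 9.73, 9.02 and 10.3 CPM against 17.6, 14.2 and 14.4 CPM. Of 16 ionotropic glutamate receptor subunits, 1 had an unadjusted p under 0.05, GRIA3 at 998, 1055 and 932 CPM against 816, 761 and 692 CPM. DESeq2 called KCNK1 of the channel list and 0 of the other 2, and limma called 0 of the 3 lists. Without sevoflurane replicate 3 edgeR called 1 channel gene, KCNK2, a background potassium channel named here after its values were seen. It was at 60.0, 59.4 and 35.2 CPM against 18.9 and 11.1 CPM (log2 -1.92, adjusted p = 0.0183 with edgeR), and at 50.1 CPM in the library left out.

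Of 5 immediate early genes tested, all had a negative log2 value, with a median of -0.42, and 1 had an unadjusted p under 0.05. NR4A3, an activity-induced nuclear receptor, was at 11.9, 30.8 and 42.7 CPM against 10.7, 12.6 and 3.99 CPM, with overlap. BDNF, a neurotrophin, was at 21.4, 14.6 and 44.8 CPM against 15.7, 19.0 and 4.88 CPM, also with overlap. Of 12 heat shock and chaperone genes, 11 had a negative log2 value and 0 had an unadjusted p under 0.05, with a median of -0.31. DESeq2 called NR4A3 and 0 chaperone genes, and limma 0 of both.

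Whether the response differed from that of the other glutamatergic neurons was tested by an edgeR interaction term with the library as a block. Of 12445 genes tested, 0 (0%) passed, with 439 at an unadjusted p under 0.05, and 0 passed with DESeq2's size factors. Of the 11 genes called in members, 5 had an interaction at an unadjusted p under 0.05, and the adjusted p was 1.000 for each. These genes were picked for their change in members, which tilts the interaction toward that direction. KIRREL1 had an interaction of -1.86 ± 0.58 (log2, SE), and in the other glutamatergic neurons it was at 5.07, 4.09 and 5.19 CPM in the controls and at 9.53, 0.922 and 3.88 CPM after sevoflurane. NOTCH2 had -1.53 ± 0.63, with 14.1 to 35.9 CPM against 9.06 to 44.5 CPM there. AGBL3 had 0.20 ± 0.41, and it was higher after sevoflurane in the other glutamatergic neurons too, at 7.97, 13.9 and 7.99 CPM against 34.2, 34.6 and 49.8 CPM. POLQ had 0.66 ± 0.40, and in the other glutamatergic neurons its groups overlapped, at 89.5, 216 and 87.5 CPM against 326, 147 and 286 CPM. In GABAergic neurons AGBL3 was at 21.7, 16.2 and 11.0 CPM against 54.6, 77.7 and 54.4 CPM, and POLQ at 47.0, 44.8 and 33.7 CPM against 76.5, 78.2 and 149 CPM. Of the 11 genes, 5 had no overlap in the same direction in the other glutamatergic neurons and 6 in the GABAergic neurons. Of all 11455 genes, 8.49% were higher and 2.99% lower without overlap in the other glutamatergic neurons, and 10.1% and 6.07% in the GABAergic neurons.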

How the data were processed

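Cells of aged marmoset hippocampus were captured with the 10x Genomics 3' v3.1 kit in 3 control and 3 sevoflurane libraries. The authors deposited raw UMI counts per gene and barcode, made with Cell Ranger (6.1.1 per the file headers), and the submitters' processing notes also name CASAVA 1.8 and Seurat. The genome build is not given in the sources used here, so no coordinates are printed. Libraries held 41164947 to 47886816 UMIs, and the precision of every level is limited by 127 to 443 members per library. Of 29320 genes, 15188 had a symbol in the files, 1397 took one from a gene name table and 12735 had none. No per-sample column was left out (0).

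The members and all gene lists were chosen with earlier results of these data known. Counts were summed per library over members, filtered with filterByExpr, scaled by TMM and tested with edgeR 4.0.16 (quasi-likelihood, Benjamini-Hochberg, threshold 0.05, R 4.3.3). Log2 fold changes are sevoflurane against control. The pipeline was tested on simulated data. Shares were compared by an exact permutation test (scipy 1.17.1). Sub-clusters came from Leiden clustering (scanpy 1.11.5, igraph 0.11.9, 2000 variable genes, 20 components, 15 neighbours, resolution 0.1) of the members alone. Doublets were called by scrublet at a score of 0.190 for all libraries, which marked 2238 barcodes.

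Named genes were the rule genes, listed markers, up to 15 and 10 leading genes, and, of the called genes without overlap, up to 10 per direction by fold change (average log2 CPM 4 or more). Directions with fewer than 5 were filled to 5 by p. FKBP5 and the 4 genes of smallest p per list were added. Alternatives were DESeq2 1.42.0, its size factors, limma 3.58.1, no filter, a replicate block, each library left out, stricter member rules, no doublets and thinning to 3000 UMIs. The labels state no pairing and same-numbered libraries did not deviate together, so libraries were treated as unpaired. With 3 libraries per group this check cannot exclude a shared animal or batch.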

Additional observations from a re-analysis of the deposited data

How the results depend on the processing

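The settings differed in how many genes they covered, and 11 of 11455 were called over all members. DESeq2 called 187 of 22914 genes given to it, and the fit without a filter on low counts 430 of 22914. Limma on mean log-normalised values called 37 of 11455, and cells thinned to 3000 UMIs gave 32 of 7267. Members with at least 4 partner genes gave 23 of 9858, members without called doublets 17 of 11354 and sub-cluster 5 alone 21 of 6678. The causes of these differences were not tested. DESeq2, limma and the unfiltered fit each held all 11, members with 4 partner genes 8 and the thinned fit 7. Leaving out 1 library gave 0 to 171 calls, the highest without sevoflurane replicate 3. With DESeq2's size factors 11 genes were called, with HS3ST4 of at least 10 UMIs 10, and with at least 5000 UMIs per cell 10.

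With the replicate block 0 genes were called by edgeR (1075 at an unadjusted p under 0.05). Same-numbered libraries had correlations of deviations of -0.257, -0.00703 and -0.127, and differently numbered ones -0.102 to 0.242. No pairing is seen in these values, but so few libraries cannot exclude one. Under the block the log2 value of POLQ was 1.58 and that of NOTCH2 -1.67, with adjusted p of 0.133 for both.

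FKBP5 turned from -0.03 to 0.026 with limma, to 0.24 with thinned cells and to 0.93 in sub-cluster 5. Leaving out 1 library gave -0.28 to 0.12, being positive without control replicate 1 (0.03), sevoflurane replicate 1 (0.04) or sevoflurane replicate 3 (0.12), and no value passed the test. The share difference ranged from -3.14 to 0.181 points over libraries left out. SYN3 turned to -1.02 in sub-cluster 6. The interaction gave 50 genes without the filter and 0 to 1 with a library left out, the 1 being ENSCJAG00000065643 without sevoflurane replicate 3, named after its value was seen. Of 249 alternative values of the 14 named genes other than FKBP5, 144 kept direction and side of the threshold, 90 no longer passed, 14 newly passed and 1 turned. Depth limits genes near 0, where 0 UMIs allow up to 0.178 CPM.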
